A study of Mus musculus with 6 samples.

Results

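Prostaglandin synthesis and signalling was represented by 10 genes, which were taken by symbol as a list of enzymes, receptors and 1 receptor-associated protein of the pathway. These were the cyclooxygenases Ptgs1 and Ptgs2, the terminal synthases Ptges, Ptges2, Ptges3, Ptgis and Ptgds, the receptors Ptgfr and Ptger4, and the receptor regulator Ptgfrn. All 10 were found among the 55401 genes counted in each library, and all 10 were among the 18539 genes that passed the filter on low counts and were tested. Ptgds passed that filter through the TC and TC + ATA libraries, where it was high, and no EV library reached the cutoff, so counts are also given without it.

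The libraries were made from NIH3T3 cells, an immortalized line of mouse embryonic fibroblasts, and measure poly(A)-selected RNA. Empty vector cells treated with the vehicle DMSO gave 2 libraries (EV). Cells that stably express TAZ-CAMTA1 (TC), a gene fusion product found in a vascular sarcoma that acts through TEAD transcription factors, gave 1 library after DMSO (TC) and 3 libraries after 10 μM aurintricarboxylic acid (ATA) for 48 h (TC + ATA). ATA is a polyanionic small molecule that the study examined for its effect on the complex of TAZ with TEAD. No ATA-treated EV library was analysed here, so in TC + ATA versus EV the fusion and the compound differ together. The labels do not say whether libraries of one group came from separate cultures, and p-values therefore measure the spread between these libraries, which may be technical. TC has 1 library, so its spread was assumed to be that of the other groups, and the comparisons of TC with EV and of TC + ATA with TC share that library.

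Prostaglandins are lipid signals made from arachidonic acid, which phospholipases free from membranes. The cyclooxygenases convert it to the unstable intermediate prostaglandin H, and terminal synthases turn this into prostaglandin E, prostaglandin D, prostacyclin, prostaglandin F or thromboxane. Each product leaves the cell and acts on its own G protein-coupled receptors, and fibroblasts are known both as a source of prostaglandin E and prostacyclin and as cells that respond to them.

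Library totals ran from 58471484 to 74413193 counts, and 3 counts, the upper limit that a count of 0 allows, correspond to 0.0393 to 0.0528 CPM, which are read counts scaled to a common library size. Low counts were mostly even, at 62.1% to 64.3% of the counts from 1 to 10 against 49.0% to 50.5% of those above 100, as if both mates of a read pair had been counted, so intervals that cover counting error are too narrow. The limit from 3 counts would then be too low as well. The 8 fibroblast markers were all at or above 1 CPM in each group, with sums of 14697 to 16841 CPM in EV, 18584 in TC and 18194 to 19379 in TC + ATA. Single fibroblast markers moved both ways beside the genes below. Pdgfra, a growth factor receptor, was at 413 ± 12.6 CPM (SD, n = 2) in EV, 180 in TC and 177 ± 2.43 (SD, n = 3) in TC + ATA. The surface protein Thy1 was at 193 ± 14.4, 69.6 and 82.1 ± 3.39 CPM, and the matrix protein Fn1 at 2686 ± 434, 1516 and 2215 ± 72.5 CPM. The collagen Col1a1 was at 3016 ± 317, 4356 and 4027 ± 173 CPM, and the filament protein Vim at 3110 ± 454, 4847 and 4200 ± 156 CPM. None of the 5 epithelial markers reached a mean of 1 CPM, and their sums were at most 1.28 CPM, with Krt18 at 0 in EV and Epcam at 0 in TC. The 4 endothelial markers summed to 1.51 to 2.22 CPM in EV, 3.44 in TC and 2.66 to 3.23 in TC + ATA. The 5 leukocyte markers summed to between 2.83 and 8.51 CPM over the libraries. A mean of 1 CPM was reached by 1 endothelial marker each in TC and TC + ATA, and by 2 leukocyte markers in each group. The leukocyte marker Ptprc varied within TC + ATA, at 0.282, 5.33 and 4.21 CPM in replicates 1, 2 and 3. The part of such shifts in marker genes and of other cells in the results was not tested, and in bulk RNA fewer cells that express a gene cannot be told apart from less RNA per cell.

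In TC versus EV, the receptors Ptgfr and Ptger4 and the inducible prostaglandin E synthase Ptges were lower and the prostacyclin synthase Ptgis and the prostaglandin D synthase Ptgds were higher, whereas neither cyclooxygenase was called in the fit of all 6 libraries. Of the 10 genes, 2 passed an adjusted p of 0.05 as higher and 3 as lower, or 1 and 3 of the 9 without Ptgds. The background over all 18539 genes was 14.8% higher and 13.2% lower in this comparison. The median log2 fold change was 0.09 over the 10 genes and −0.03 over all genes tested. Without Ptgds, the median of the other 9 was the value of Ptgs2, −0.02, close to that of all genes. Over all genes, 2735 were called higher and 2456 lower, and under scaling by library size alone 2072 and 3159, with the median of all genes at −0.13. With an absolute log2 fold change of at least 2 required as well, Ptgds and Ptgfr passed, against 3.64% of all genes. Without Ptgds, that left Ptgfr, 1 of 9.

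In TC + ATA versus EV, 4 of the 10 genes were called higher (Ptges3, Ptgis, Ptgds and Ptgfrn) and 3 lower (Ptges, Ptgfr and Ptger4), where 18% of all genes were called higher and 18.6% lower. Without Ptgds, 3 were higher and 3 lower. The median log2 fold change was 0.09 over the 10 genes, 0.08 without Ptgds (the value of Ptgs2) and −0.01 over all genes. Relative to TC, none of the 10 was called in TC + ATA by edgeR or DESeq2, 3 had an unadjusted p under 0.05 in edgeR (Ptgds, Ptger4 and Ptgfrn), and over all genes 0.426% were called higher and 0.156% lower. The medians there were 0.11 over the 10 genes, 0.10 without Ptgds (the value of Ptgs2) and 0.00 over all genes. Leaving out libraries moved these counts and those over all genes. Without either EV library, which leaves 1, more of the 10 genes and more of all genes were called higher in TC versus EV. The same held in TC + ATA versus TC. Without TC + ATA replicate 1, 2 or 3, 1 of the 10 was called higher in TC versus EV. Over all genes these fits called 2296, 2170 and 2162 higher, and the full fit 2735. Without TC + ATA replicate 2, 2 of the 10 were called higher in TC + ATA versus EV. Over all genes that fit called 2577 higher, and the full fit 3340.

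**Figure D1:**
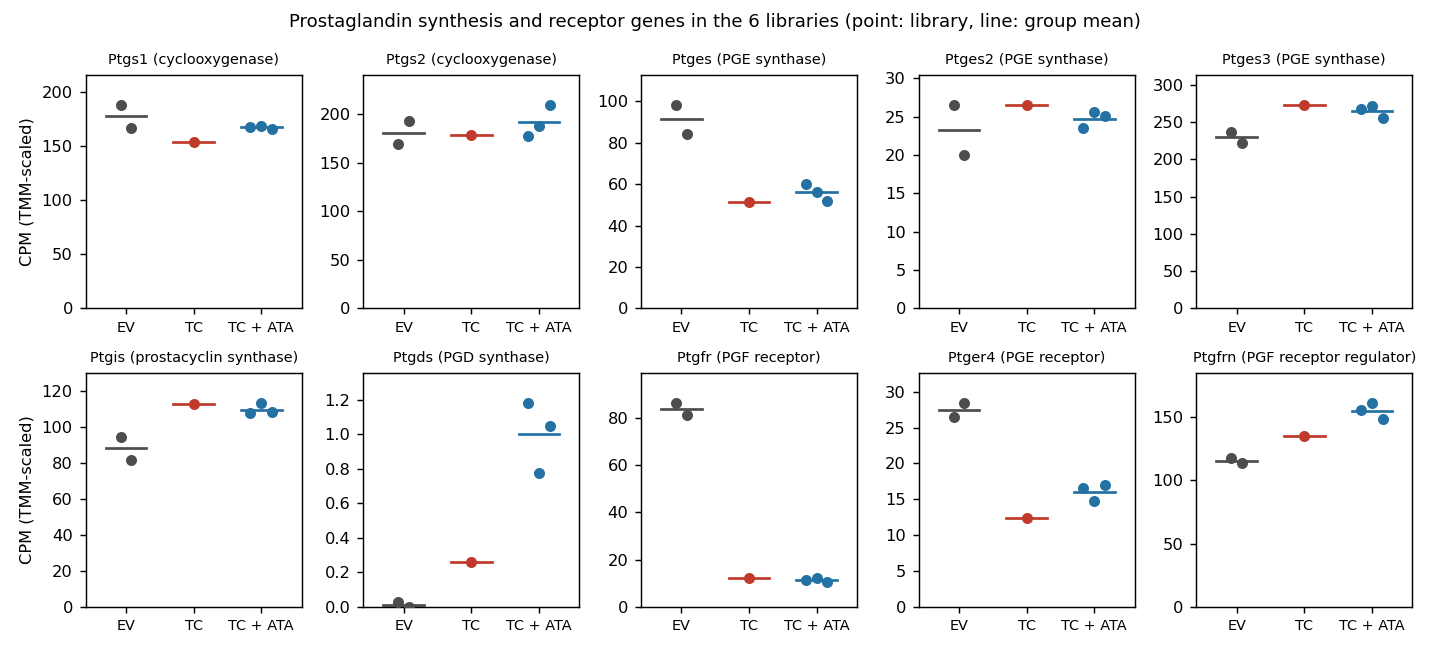
TMM-scaled CPM (y axis, from 0) of the 10 genes in the EV, TC and TC + ATA libraries. Each point is a library and each line a group mean. The EV points of Ptges, Ptgfr and Ptger4 lie above every TC and TC + ATA point, those of Ptgis, Ptgds, Ptges3 and Ptgfrn lie below, and those of Ptgs1, Ptgs2 and Ptges2 lie among or near the others.

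The cyclooxygenases catalyse the committed step of the pathway. Ptgs1 (ENSMUSG00000047250, GRCm38 chromosome 2, 36230426 to 36252272, plus strand) encodes the form most tissues express constitutively. It was at 188 and 168 CPM in EV, 154 CPM in TC and 168, 169 and 166 CPM in TC + ATA. The TC library was the lowest, and the EV values spread more widely than the TC + ATA values, which lay between 166 and 169 CPM. Relative to EV, the log2 fold change in TC was −0.21 ± 0.09 (SE), with an unadjusted p of 0.0484 and an adjusted p of 0.127 in edgeR's quasi-likelihood test. The change in TC + ATA versus EV was −0.09 ± 0.07 (edgeR, adjusted p = 0.36). Ptgs1 was called lower in TC in 3 of 14 alternatives, which were scaling by library size alone (adjusted p = 0.0124) and the fits without EV replicate 1 (adjusted p = 0.0354) or 2 (adjusted p = 0.000352). It was called lower in TC + ATA in 2 of 14, under library size scaling (adjusted p = 0.0326) and without EV replicate 2 (adjusted p = 0.00467).

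Ptgs2 (ENSMUSG00000032487, chromosome 1, 150100031 to 150108227, plus strand) encodes the inducible cyclooxygenase, an immediate early gene that serum and cytokines raise in fibroblasts. Its level was 170 and 192 CPM in EV, 179 CPM in TC and 178, 188 and 209 CPM in TC + ATA. All 3 groups overlapped in range, with the TC value between the EV values. In TC versus EV the log2 fold change was −0.02 with a 95% interval of −0.28 to 0.25 (edgeR, adjusted p = 0.929), and relative to TC that of TC + ATA was 0.10 with an interval of −0.15 to 0.35 (edgeR, adjusted p = 0.83). Changes within these intervals were not detectable. Per kb of exon, the ratio of Ptgs2 to Ptgs1 was 0.763 and 0.974 in EV, 0.984 in TC and 0.899, 0.944 and 1.07 in TC + ATA, so the transcripts of both enzymes were present at similar levels per length in each library.

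Of the prostaglandin E synthases, Ptges (ENSMUSG00000050737, chromosome 2, 30889471 to 30929863, minus strand) encodes the microsomal, inducible enzyme that acts mainly with the product of Ptgs2. It was at 98.2 and 84.3 CPM in EV, 51.4 CPM in TC and 60.1, 56.1 and 52.0 CPM in TC + ATA. Every TC and TC + ATA library was below both EV libraries, and the TC value lay just under the TC + ATA range. The group means were 91.3 ± 9.83 CPM (SD, n = 2) in EV and 56.1 ± 4.01 (SD, n = 3) in TC + ATA. Ptges fell by 0.83 ± 0.12 (SE) on the log2 scale in TC versus EV, a level 1.78-fold lower (edgeR, adjusted p = 0.000952). It fell by 0.70 ± 0.09 in TC + ATA versus EV (edgeR, adjusted p = 0.00023), and relative to TC the change in TC + ATA was 0.12 with a 95% interval of −0.13 to 0.38 (edgeR, adjusted p = 0.785). The 95% interval in TC versus EV, −1.10 to −0.56, lay below that of Ptgs2, the enzyme that acts before it.

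Ptges2 and Ptges3 encode prostaglandin E synthases that are expressed constitutively. Ptges2 (ENSMUSG00000026820, chromosome 2, 32395896 to 32405772, plus strand), the membrane-associated form, was at 26.5 and 19.96 CPM in EV, 26.5 CPM in TC and 23.5, 25.5 and 25.0 CPM in TC + ATA. The TC value equalled the upper EV value to 3 digits, and the EV libraries differed more from each other than the TC + ATA libraries did. Its log2 fold change was 0.19 ± 0.15 (SE) in TC versus EV (edgeR, adjusted p = 0.406) and 0.09 ± 0.11 in TC + ATA versus EV (edgeR, adjusted p = 0.597). Without EV replicate 1 it was called higher in both (adjusted p = 0.00664 and 0.0112).

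Ptges3 (ENSMUSG00000071072, chromosome 10, 128058954 to 128077272, plus strand), the cytosolic form, is also the Hsp90 cochaperone p23. It was at 237 and 222 CPM in EV, 273 CPM in TC and 268, 271 and 255 CPM in TC + ATA. All TC and TC + ATA values lay above both EV values. The log2 fold change in TC versus EV, 0.25 ± 0.09 (SE), missed the threshold (edgeR, adjusted p = 0.0578), and that in TC + ATA versus EV, 0.21 ± 0.06, passed it (edgeR, adjusted p = 0.0337). The former was called in 6 of 14 alternatives, among them DESeq2 (adjusted p = 0.0382) and the fits without EV replicate 1 (adjusted p = 0.000602) or 2 (adjusted p = 0.00537). The latter call was lost when any 1 TC + ATA library was left out (adjusted p = 0.0698 to 0.161) and under scaling by library size alone (adjusted p = 0.0968). The processed pseudogene Ptges3-ps matches 480 exonic bases of Ptges3 at 100% identity and had 2506 to 3386 counts per library, so reads of the pair may have been divided at the counting step and the values are uncertain.

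Ptgis (ENSMUSG00000017969, chromosome 2, 167191805 to 167240604, minus strand) encodes the prostacyclin synthase, a cytochrome P450 of vascular and stromal cells. It was at 94.6 and 82.0 CPM in EV, 113 CPM in TC and 108, 113 and 108 CPM in TC + ATA. All TC and TC + ATA values were above both EV values, and the TC value was within the TC + ATA range. Ptgis rose by 0.36 ± 0.10 (SE) on the log2 scale in TC versus EV, 1.28-fold (edgeR, adjusted p = 0.0241), and by 0.31 ± 0.07 in TC + ATA versus EV (edgeR, adjusted p = 0.00945). The call in TC versus EV was lost without any 1 of the TC + ATA libraries (adjusted p = 0.0565 to 0.0648), with only EV and TC in the fit (adjusted p = 0.147) and under scaling by library size alone (adjusted p = 0.0501). Of the fits that left out a library, the one without TC + ATA replicate 2 lost the call in TC + ATA versus EV (adjusted p = 0.0532).

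With Ptges lower and Ptgis higher, the ratio of Ptges to Ptgis per kb of exon was 0.678 and 0.672 in EV, 0.297 in TC and 0.364, 0.323 and 0.314 in TC + ATA. The EV ratios lay together and above those of every TC-expressing library. These are ratios of transcripts, and neither prostaglandin was measured.

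Ptgds (ENSMUSG00000015090, chromosome 2, 25466709 to 25470046, minus strand) encodes the lipocalin-type prostaglandin D synthase, a secreted enzyme best known from brain, meninges and heart. It had 2 and 0 reads in EV, 18 reads in TC and 67, 55 and 73 reads in TC + ATA, or 0.0267 and 0 CPM, 0.259 CPM, and 1.18, 0.776 and 1.05 CPM. The groups did not overlap, with EV below the floor of 3 counts, TC between and TC + ATA highest. Scaled to library size, the summed reads gave a ratio of TC to EV of 19.6 with an exact 95% interval of 4.69 to 174, and with the reads halved for the 2 mates the interval was 2.71 to 858. The ratio of TC + ATA to TC was 3.81 with an interval of 2.35 to 6.57, and with the reads halved the interval was 1.94 to 8.63. The intervals cover counting error alone. As Ptgds passed the filter on low counts through the groups where it was high, the interval of TC to EV is not read as support.

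In edgeR, Ptgds was called higher in TC versus EV, with a log2 fold change of 4.12 ± 0.91 (SE) and an adjusted p of 0.0092, and in TC + ATA versus EV, with 6.06 ± 0.71 and an adjusted p of 0.000189. Since Ptgds entered the test only through the groups where it was high, its selection favoured a difference from EV, and these p-values are not read as support. The size of these fitted values depends on the few EV reads, and they ran from 3.19 to 7.16 and from 5.14 to 9.10 over the alternatives. Relative to TC, the log2 fold change of Ptgds in TC + ATA was 1.94 ± 0.62 with an unadjusted p of 0.0122 and an adjusted p of 0.314, and it was called in 3 of 14 alternatives, which were the fits with only the 2 groups compared or without either EV library (adjusted p = 0.028 to 0.0418). Even in TC + ATA the transcript was the least abundant of the 10 genes, at 0.607 CPM per kb of exon.

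The receptor genes carried the largest decrease among the 10 genes. Ptgfr (ENSMUSG00000028036, chromosome 3, 151796502 to 151837630, minus strand) encodes the prostaglandin F receptor, which couples to Gq and calcium release. It was at 86.1 and 81.0 CPM in EV, 12.4 CPM in TC and 11.3, 12.2 and 10.5 CPM in TC + ATA, from 6443 and 6178, 860, and 644, 868 and 731 reads. The EV libraries stood far above the other 4, which lay within 2 CPM of each other. Ptgfr fell by 2.75 ± 0.12 (SE) on the log2 scale in TC versus EV, a level 6.74-fold lower (edgeR, adjusted p = 1.09e-06), and by 2.88 ± 0.08 in TC + ATA versus EV, 7.35-fold lower (edgeR, adjusted p = 7.00e-08). Relative to TC, its log2 fold change in TC + ATA was −0.12 with a 95% interval of −0.36 to 0.11 (edgeR, adjusted p = 0.775).

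The gene model of Ptgfr shares 329 of its 6778 exonic bases with Gm43618 on the opposite strand, and reads of the 2 cannot be told apart where counting did not use strand. Gm43618 had 935 and 1130 reads in EV, 86 in TC and 80, 80 and 86 in TC + ATA, so both records were high in EV and low in the other libraries.

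Ptger4 (ENSMUSG00000039942, chromosome 15, 5206661 to 5244187, minus strand) encodes the prostaglandin E receptor EP4, which raises cAMP. Its level was 26.5 and 28.4 CPM in EV, 12.3 CPM in TC and 16.5, 14.7 and 17.0 CPM in TC + ATA. The 3 groups did not overlap, with EV highest, TC lowest and TC + ATA between. Ptger4 fell by 1.16 ± 0.12 (SE) on the log2 scale in TC versus EV, a level 2.23-fold lower (edgeR, adjusted p = 0.000159), and by 0.77 ± 0.09 in TC + ATA versus EV, 1.71-fold lower (edgeR, adjusted p = 0.000143). Relative to TC, the change in TC + ATA was 0.38 ± 0.12, with an unadjusted p of 0.00956 and an adjusted p of 0.284 in edgeR. It passed the threshold in 3 of 14 alternatives, those with only the 2 groups compared or without either EV library (adjusted p = 0.0414 to 0.0453). The gene model shares 1097 of 6648 exonic bases with opposite-strand genes, of which Gm15937 had 0 reads in every library and Ttc33 had 1293 and 1077 in EV, 922 in TC and 986, 993 and 1051 in TC + ATA.

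Both receptors and the synthase Ptges were lower in the TC-expressing libraries, and bases upstream of their RefSeq starts are given for that reason, each from RefSeq on GRCm38.p6, 5′ to 3′ on the minus strand. Of the 10 genes, 9 had a promoter window, and Ptgis was not matched. The stretches of Ptgfr (chr3:151837631-151837778), Ptger4 (chr15:5244188-5244437) and Ptges (chr2:30903298-30903547) lie outside the annotated exons of the gene itself, and that of Ptges lies between exons of its longer GENCODE model. The stretch of Ptgds, the most raised of the 10 in both comparisons with EV, is 29 bases around its AP-1 match (chr2:25469767-25469795). It lies within the annotated span of Ptgds (25466709 to 25470046). The part of that window upstream of annotated exons is chr2:25469843-25469999, so the 29 bases were not shown to lie outside exons. Capitals mark matches to the motifs searched.
Ptgfr: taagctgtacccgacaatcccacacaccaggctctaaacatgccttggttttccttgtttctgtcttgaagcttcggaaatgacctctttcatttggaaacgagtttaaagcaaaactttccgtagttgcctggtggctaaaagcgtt
Ptger4: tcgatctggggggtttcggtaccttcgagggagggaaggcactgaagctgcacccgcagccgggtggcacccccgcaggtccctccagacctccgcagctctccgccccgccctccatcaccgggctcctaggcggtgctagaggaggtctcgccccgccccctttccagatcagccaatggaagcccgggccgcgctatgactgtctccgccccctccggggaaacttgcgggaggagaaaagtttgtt
Ptges: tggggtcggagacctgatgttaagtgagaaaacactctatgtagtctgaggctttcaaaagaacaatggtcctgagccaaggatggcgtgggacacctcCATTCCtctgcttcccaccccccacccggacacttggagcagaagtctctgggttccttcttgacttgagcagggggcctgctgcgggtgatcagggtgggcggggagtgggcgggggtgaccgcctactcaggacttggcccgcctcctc
Ptgds: gaggccaagccTGACTCAtaaataggggg

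The TEAD motif GGAATG, read on both strands, was found in the windows of Ptges, at positions −151 to −146 from the start as CATTCC, and of Ptges2, or 2 of 9, and 14.7% of 32851 promoter windows hold it. The AP-1 motif TGANTCA was found in 1 of 9, Ptgds, at positions −35 to −29 as TGACTCA, against 7.81% of all windows. The core of the cAMP response element, TGACG, was found in 2 of 9, Ptges3 and Ptgs2, both after the start, against 20.8%. The E-box CACGTG was found in 2 of 9, Ptges2 and Ptgs2, against 7.15%, and in Ptgs2 it overlaps that core. The windows of Ptgfr and Ptger4 held none of these letters. A match is a description of the sequence and no evidence that a factor binds there.

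Ptgfrn (ENSMUSG00000027864, chromosome 3, 101040232 to 101110278, minus strand) encodes a membrane protein of the immunoglobulin superfamily, known as a negative regulator of the prostaglandin F receptor and a partner of tetraspanins. It was at 118 and 113 CPM in EV, 135 CPM in TC and 156, 161 and 148 CPM in TC + ATA. The groups did not overlap, with EV lowest, TC between and TC + ATA highest. The change in TC versus EV was 0.23 ± 0.08 (SE; edgeR, adjusted p = 0.0764), and in TC + ATA versus EV Ptgfrn rose by 0.42 ± 0.06, 1.34-fold (edgeR, adjusted p = 0.000801). The former was called in 3 of 14 alternatives, which were a filter of 1 CPM in 2 libraries (adjusted p = 0.0324) and the fits without EV replicate 1 (adjusted p = 0.00569) or 2 (adjusted p = 0.0183). Relative to TC, the change in TC + ATA was 0.20 ± 0.08 with an unadjusted p of 0.0365 and an adjusted p of 0.475, and it was called in 3 of 14 alternatives, again those with only the 2 groups compared or without either EV library (adjusted p = 0.0221 to 0.0296). The ratio of Ptgfr to Ptgfrn per kb of exon was 1.13 and 1.10 in EV, 0.141 in TC and 0.112, 0.117 and 0.109 in TC + ATA. By exonic length the receptor was thus at about the level of its regulator in EV and well below it in the others. Coding lengths, 1098 bases for Ptgfr and 2637 for Ptgfrn, would put the receptor higher relative to its regulator.

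**Figure D2:**
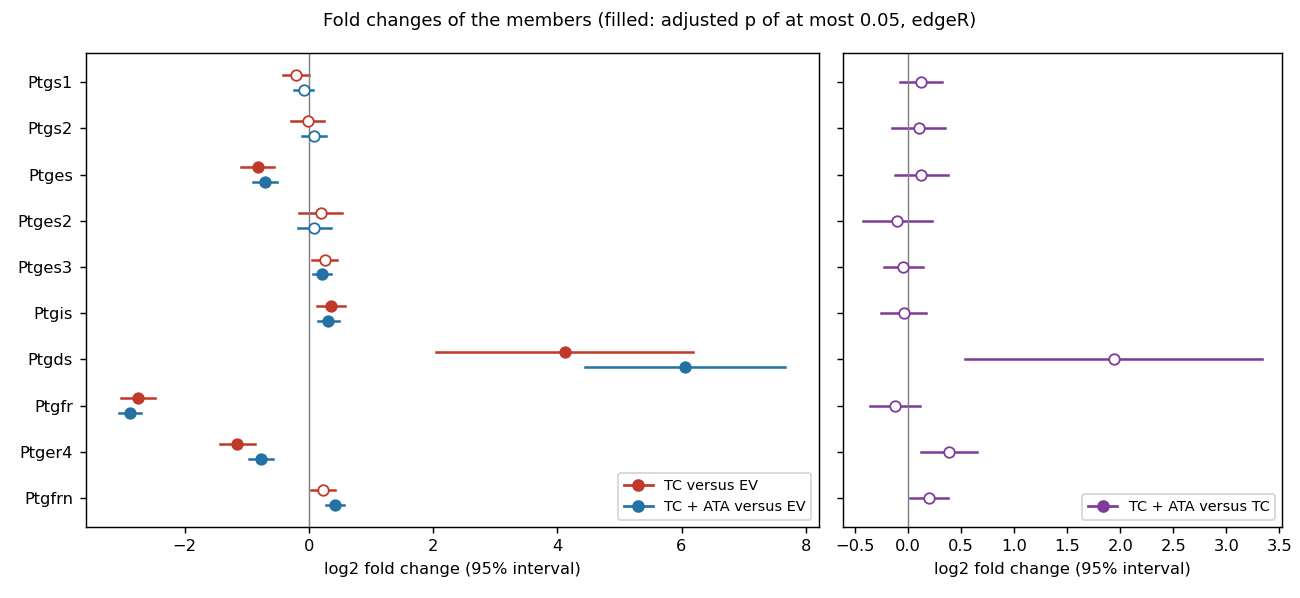
Log2 fold changes of the 10 genes (x axis) with 95% intervals from the edgeR fit, relative to EV in the left panel and for TC + ATA relative to TC in the right panel, which has its own scale. Filled points passed an adjusted p of 0.05. Ptgfr lies at −2.75 and −2.88 and Ptgds at 4.12 and 6.06 in the left panel, and the right panel has no filled point.

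The prostanoid receptor family as a whole was dominated by Ptgfr in EV. Over the 9 prostanoid receptor genes, the summed level was 17.4 and 17.0 CPM per kb of exon in EV, 4.51 in TC and 5.17, 5.299 and 5.14 in TC + ATA. Ptgfr made up 72.9% and 70.5% of that sum in EV, 40.5% in TC and 32.3%, 34.1% and 30.2% in TC + ATA. Ptger4 made up 22.9% and 25.2% in EV, 41.1% in TC and 48.1%, 41.7% and 49.6% in TC + ATA. By exonic length its share was thus close to that of Ptgfr in TC and larger in each TC + ATA library. This order depends on the length used, as the coding lengths are 1098 bases for Ptgfr and 1539 for Ptger4. By those, Ptgfr would lie above Ptger4 in TC (12.4 and 12.3 CPM) and in TC + ATA replicate 2 (12.2 and 14.7 CPM). Per kb, the ratio of Ptgfr to Ptger4 was 3.19 and 2.80 in EV, 0.987 in TC and 0.673, 0.817 and 0.608 in TC + ATA.

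Of the other 7 receptor genes, the prostacyclin receptor Ptgir was the most abundant, at 2.01 and 1.81 CPM in EV, 1.58 CPM in TC and 2.16, 2.76 and 2.01 CPM in TC + ATA, and it was not called in any comparison. The thromboxane receptor Tbxa2r was called higher in TC versus EV, at a log2 fold change of 1.91 ± 0.62 (SE; edgeR, adjusted p = 0.0488), and in TC + ATA versus EV, at 1.97 ± 0.51 (edgeR, adjusted p = 0.0145). It had 6 and 10 reads in EV, 28 in TC and 24, 25 and 34 in TC + ATA, so the rise was from a very low level, and the call in TC versus EV held in 5 of 13 alternatives. The prostaglandin D receptor Ptgdr had 0 reads in all 6 libraries. That allows up to 0.0393 to 0.0528 CPM, or more if both mates of a pair were counted. The cells with Ptgds reads thus showed no transcript of this receptor at this depth. The second prostaglandin D receptor, Ptgdr2, had 10 to 23 reads per library and was not called in any comparison.

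**Figure D3:**
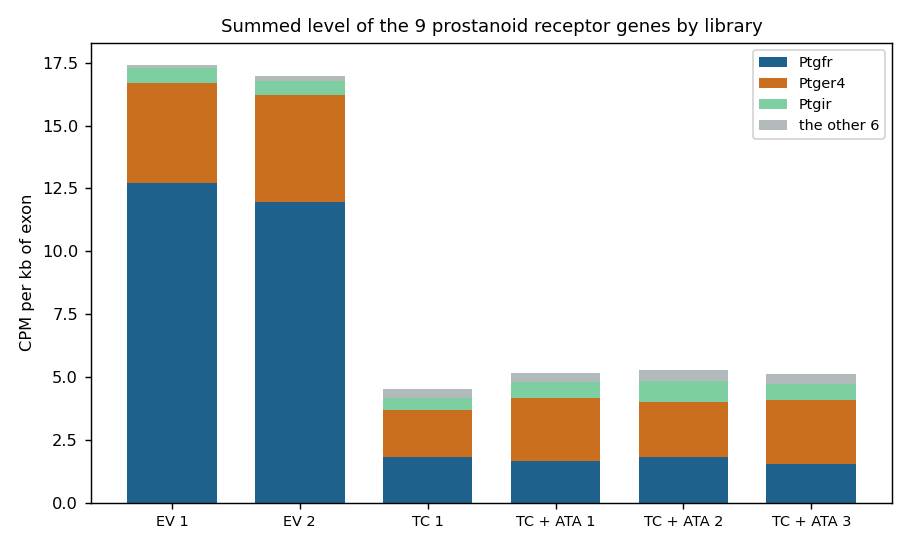
Summed level of the 9 prostanoid receptor genes in each library (stacked bars from 0, CPM per kb of exon), divided into Ptgfr, Ptger4, Ptgir and the other 6. The bars reach 17.4 and 17.0 in EV, 4.51 in TC and 5.14 to 5.299 in TC + ATA, and the Ptgfr segment accounts for most of the difference.

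Set side by side per kb of exon, the 10 genes spanned a wide range of levels. In EV the order was Ptges3 (103 CPM per kb), Ptgs1 (45.8), Ptgs2 (39.5), Ptgis (34.4), Ptges (23.2), Ptgfr (12.3), Ptgfrn (11.1), Ptges2 (4.59), Ptger4 (4.13) and Ptgds (0.00811). The EV ranges of Ptges2 and Ptger4 overlapped, and those of the other neighbours did not. In TC the order was Ptges3, Ptgis, Ptgs1, Ptgs2, Ptges, Ptgfrn, Ptges2, Ptger4, Ptgfr and Ptgds, with 1 library and no spread. In TC + ATA it was Ptges3, Ptgs1, Ptgis, Ptgs2, Ptgfrn, Ptges, Ptges2, Ptger4, Ptgfr and Ptgds, where the ranges of Ptgs1, Ptgis and Ptgs2 overlapped, as did those of Ptgfrn and Ptges. Ptgfr moved from the 6th place in EV to the 9th in TC and TC + ATA, and Ptgds was last in every group. With coding exons in place of all exons as the length, 15 of the 30 places were kept.

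**Figure D4:**
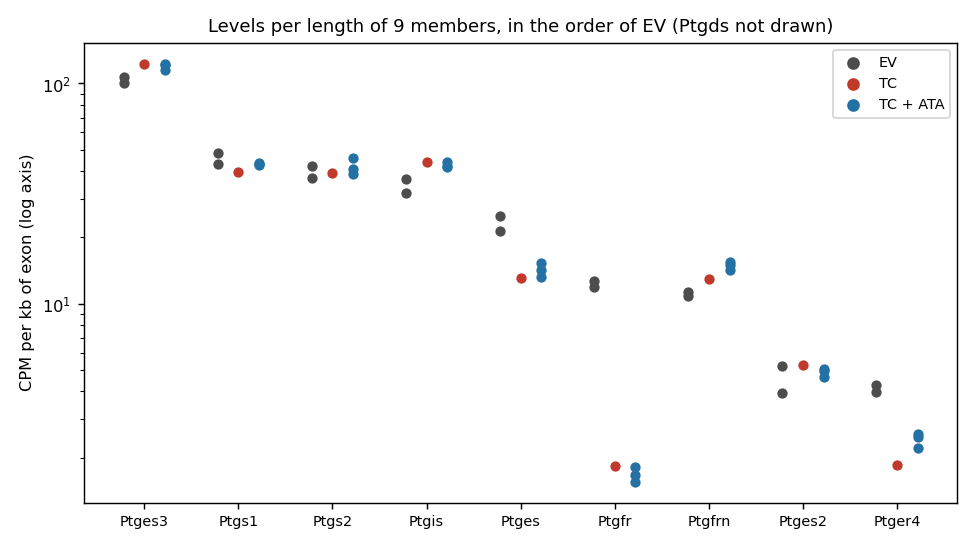
Levels of 9 of the 10 genes in CPM per kb of exon (log axis), ordered from left to right as in EV, with a point for each library. Ptgds is not drawn because of its count of 0. Ptgfr lies between 11.95 and 12.7 in EV and between 1.55 and 1.83 in the TC-expressing libraries, below Ptger4 in each of the latter.

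In the wider pathway, 33 other genes were listed by step, from the release of arachidonic acid to the breakdown of prostaglandins and the lipoxygenase branch, and 26 were tested. In TC versus EV 7 were called higher and 4 lower, beside 14.8% and 13.2% of all genes, and in TC + ATA versus EV 7 and 6, beside 18% and 18.6%. No EV library reached the filter's cutoff for 4 of the 26 (Pla2g5, Hpgds, Ptger2 and Alox12), and of the other 22, 6 were higher and 4 lower in TC and 6 and 6 in TC + ATA. None was called in TC + ATA versus TC by edgeR, where 2 (Abcc4 and Alox5) had an unadjusted p under 0.05. The median log2 fold changes were −0.04 and 0.31 in TC and TC + ATA relative to EV and 0.17 in TC + ATA relative to TC, beside −0.03, −0.01 and 0.00 over all genes. Without Ptger2, which had 0 reads in TC, the first and the last were −0.03 and 0.15. Of the 24 calls in the comparisons with EV, 6 were lost without EV replicate 1, 1 without EV replicate 2, and 6, 8 and 10 without TC + ATA replicate 1, 2 and 3.

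The phospholipases that free arachidonic acid moved in both directions. The cytosolic Pla2g4a, a main supplier of arachidonic acid for prostaglandin synthesis, averaged 210 ± 10.7 CPM (SD, n = 2) in EV, was at 162 CPM in TC and averaged 168 ± 3.10 (SD, n = 3) in TC + ATA. It fell by 0.37 ± 0.08 (SE) on the log2 scale in TC versus EV (edgeR, adjusted p = 0.00985) and by 0.33 ± 0.06 in TC + ATA versus EV (edgeR, adjusted p = 0.00301). The calcium-independent Pla2g6 rose by 0.41 ± 0.10 and 0.36 ± 0.08 (edgeR, adjusted p = 0.0159 and 0.00625). The cytosolic isoform Pla2g4c rose by 1.01 ± 0.30 and 0.74 ± 0.23 (edgeR, adjusted p = 0.0319 and 0.0354), from a mean of 1.76 CPM in EV. The secreted Pla2g5 was called higher in both (edgeR, adjusted p = 0.0258 and 0.00466) on 0 and 2 reads in EV, 15 in TC and 15, 22 and 26 in TC + ATA. Pla2g5 passed the filter on low counts only through the groups where it was high. Of the other 5 phospholipases tested, 2 were called higher and 1 lower in each of the comparisons with EV, beside 14.8% and 13.2% of all genes in TC and 18% and 18.6% in TC + ATA.

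Among the 6 other terminal synthases, the aldose reductase Akr1b3, which can make prostaglandin F, averaged 813 ± 115 CPM (SD, n = 2) in EV, was at 1286 CPM in TC and averaged 1505 ± 131 (SD, n = 3) in TC + ATA. It rose by 0.66 ± 0.14 (SE) on the log2 scale in TC versus EV (edgeR, adjusted p = 0.00756) and by 0.89 ± 0.11 in TC + ATA versus EV (edgeR, adjusted p = 0.000266). A related reductase, Akr1b8, fell by 0.39 ± 0.10 and 0.42 ± 0.07 (edgeR, adjusted p = 0.015 and 0.00152). Of the 6, 1 was thus called higher and 1 lower in each comparison with EV. Over all genes, the shares were 14.8% and 13.2% in TC and 18% and 18.6% in TC + ATA. The level of Akr1b3, 1 candidate prostaglandin F synthase, was higher and that of the prostaglandin F receptor gene Ptgfr lower in the TC-expressing libraries.

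Of the export and uptake genes, Abcc4, an efflux pump that carries prostaglandins out of cells, rose by 1.196 ± 0.10 (SE) on the log2 scale in TC versus EV (edgeR, adjusted p = 4.12e-05) and by 1.54 ± 0.08 in TC + ATA versus EV (edgeR, adjusted p = 1.60e-06). It averaged 12.3 ± 0.423 CPM (SD, n = 2) in EV, was at 28.1 CPM in TC and averaged 35.8 ± 2.23 (SD, n = 3) in TC + ATA, and the groups did not overlap. Slco2a1, the prostaglandin uptake transporter, rose by 0.35 ± 0.10 and 0.43 ± 0.08 (edgeR, adjusted p = 0.0282 and 0.0022), from a mean of 119 CPM in EV. The reductases Ptgr1 and Zadh2, listed for the breakdown of prostaglandins, fell by 0.44 ± 0.12 and 0.36 ± 0.08 in TC versus EV (edgeR, adjusted p = 0.0238 and 0.0109). In TC + ATA versus EV they fell by 0.26 ± 0.09 and 0.25 ± 0.06 (edgeR, adjusted p = 0.0446 and 0.0113). Hpgd, also listed for breakdown, was not tested, with 0 reads in EV, 4 in TC and 10 over the TC + ATA libraries. Breakdown of prostaglandins was not measured. In the lipoxygenase branch, which makes leukotrienes from the same substrate, Alox5 and its activating protein Alox5ap were called lower in TC + ATA versus EV. Their log2 fold changes were −0.995 ± 0.33 and −1.503 ± 0.39 (edgeR, adjusted p = 0.0422 and 0.0147). Alox5 was at 1.57 CPM in EV, 1.51 in TC and 0.783 in TC + ATA, and Alox5ap at 0.761, 0.259 and 0.267 CPM (means for EV and TC + ATA). In TC versus EV neither was called, at −0.05 and −1.55 (edgeR, adjusted p = 0.946 and 0.0722).

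**Figure D5:**
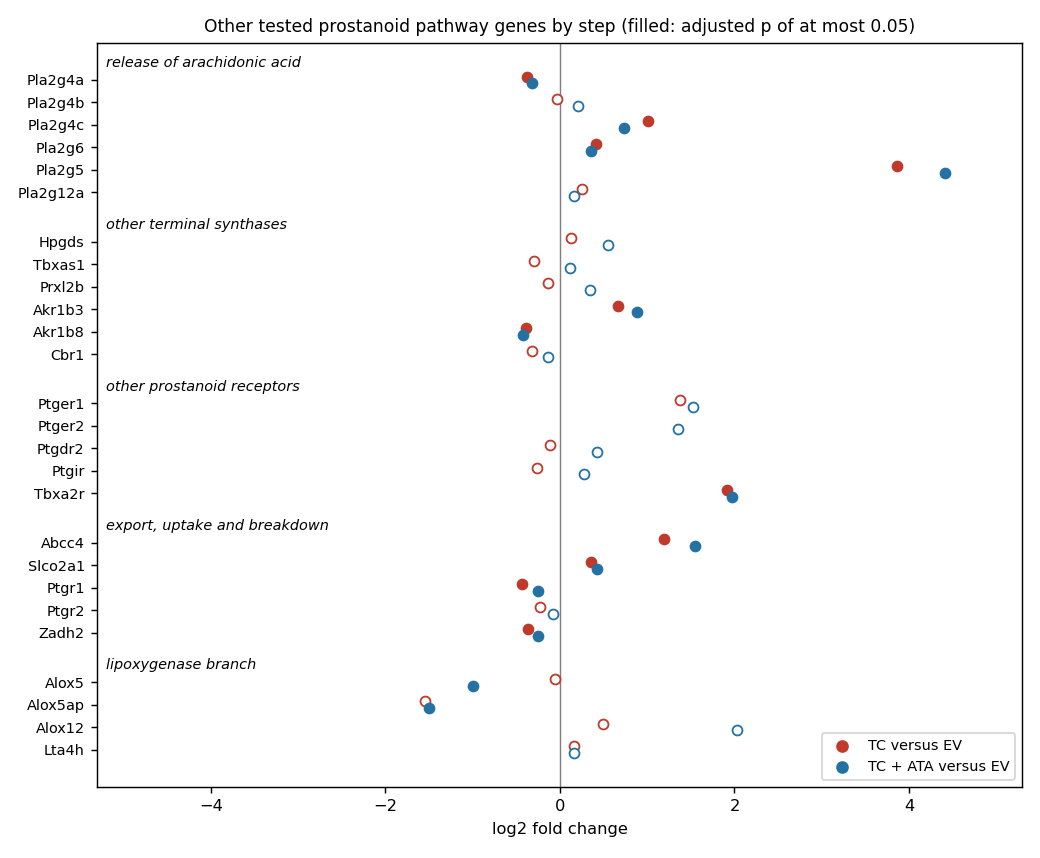
Log2 fold changes (x axis) of the 26 tested pathway genes outside the 10, grouped by step, for TC and for TC + ATA, both relative to EV. Filled points passed an adjusted p of 0.05 in edgeR. Ptger2 in TC versus EV is not drawn because it had 0 reads in TC. Abcc4 is filled at 1.196 and 1.54 and Pla2g5, with 2 reads over the EV libraries, at 3.86 and 4.41.

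The pattern of Ptgfr and Ptgds over the 6 libraries was compared with that of all other tested genes with a mean of at least 1 CPM, by the root mean square difference of centred log2 CPM. Among 12711 genes, those most like Ptgfr were Mmp9 (0.0632), Hgf (0.146) and Gas2 (0.192). Mmp9, a secreted gelatinase, was at 4.96 and 5.01 CPM in EV, 0.749 in TC and 0.598, 0.719 and 0.604 in TC + ATA, and Hgf, the hepatocyte growth factor, at 18.5 and 21.97 CPM in EV, 3.30 in TC and 2.66, 2.51 and 2.55 in TC + ATA. Those most like Ptgds among 12712 genes were Cdh19 (0.39), Gsta3 (0.45) and Plb1 (0.457). Gsta3, a glutathione S-transferase, was at 1.18 and 0.721 CPM in EV, 11.6 in TC and 18.3, 18.3 and 18.7 in TC + ATA, also lowest in EV and highest in TC + ATA. These likenesses are over 6 libraries that share their groups and describe the pattern alone.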

How the data were processed

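RNA was measured in 6 NIH3T3 libraries, grouped and numbered as their labels give it. After poly(A) selection the authors sequenced both ends of each fragment (Illumina HiSeq). Their alignment used HISAT2 (version 2.2.1 per the submitters' processing notes) and mm10, and featureCounts gave the read count of every gene. These deposited counts are integers and had not been normalized. The annotation release and whether counting used strand are not given in the sources used here, and reads shared by overlapping or near-identical genes may have been lost or divided at that step.

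Symbols, positions and exon lengths came from GENCODE M21 on GRCm38, which matched 55141 of the 55401 gene identifiers. Prxl2b is listed there as Fam213b. Counts were fitted in R 4.3.3 with edgeR 4.0.16 (TMM, filterByExpr with a minimum count of 10, glmQLFit with glmQLFTest, a single fit of all 6 libraries with 3 residual degrees of freedom) with Benjamini-Hochberg adjustment over the 18539 genes tested, and a gene was called at an adjusted p of at most 0.05. Standard errors were derived from the F statistic. CPM are counts scaled to a common library size by the TMM-adjusted totals, and levels of different genes were compared per kb of exon. Ratios of Ptgds reads carry exact conditional 95% intervals (SciPy 1.17.1). The fit was tested on simulated data in which TC and TC + ATA carried the same changes, so the test bears on the comparisons with EV. Library totals were 58471484 to 74413193 counts.

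The 10 genes and the lists were chosen with earlier results of these data known. By rule, the text names these 10, every wider pathway gene called in at least 1 comparison, the cell type markers by list, and the 3 genes most like the members with the highest and the lowest log2 fold change in TC versus EV. Ptgir, Ptgdr, Ptgdr2, Ptger2, Hpgd, Hpgds and Alox12 fell outside the rule and were named after their values were seen, as were the genes that overlap or copy a member. Alternatives were DESeq2 1.42.0, 3 other scalings, 2 other filters, only the groups compared, a replicate block, each EV and TC + ATA library left out in turn, a fold change limit and, added after seeing the data, counts halved and rounded up. The labels give the replicate numbers 1 and 2 to both EV and TC + ATA.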

Additional observations from a re-analysis of the deposited data

How the results depend on the processing

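Ptges, Ptgfr and Ptger4 (lower) were called in all 14 alternatives in TC and in TC + ATA relative to EV, as was Ptgfrn (higher) in TC + ATA. Ptgds (higher) was called in all 14 too. It passed the filter through the groups where it was high, so these calls are not read as support. Relative to EV, Ptgis was called in 8 of 14 in TC and 12 of 14 in TC + ATA, and Ptges3 in 9 of 14 in TC + ATA. Signs turned for genes that were not called. For Ptgs2 in TC versus EV the log2 fold change was 0.050 under the replicate block and −0.12 to 0.074 with an EV library left out. In TC + ATA it was −0.032 relative to TC under the block, and relative to EV −0.0066 under library size scaling and −0.018 to 0.19 with an EV library left out. Ptges2 ran from −0.0014 to 0.396 in TC and from −0.092 to 0.29 in TC + ATA with an EV library left out. Under the block and relative to TC, Ptges3 was at 0.0011 and Ptgis at 0.0020 in TC + ATA. The cause was not tested.

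The members called higher in TC versus EV, 2 in the fit reported, numbered 1 with library size scaling, 4 with a filter of 1 CPM in 2 libraries, 1 with only the groups compared, 1 with the fold change limit and 1 to 5 with a library left out. Those called lower, 3, became 1 with the fold change limit and 3 to 4 with a library left out. In TC + ATA versus TC, 3 members were called higher with only the groups compared, and 0 to 3 with a library left out. In TC + ATA versus EV, the 4 higher became 1 with the fold change limit and 2 to 5 with a library left out, and the 3 lower became 1 and 3 to 4. Of the wider pathway in TC versus EV, the 7 higher became 4 with library size scaling, 3 with only the groups compared, 1 with the fold change limit and 3 to 8 with a library left out, and the 4 lower became 0, with only the groups compared or the fold change limit, and 3 to 5. In TC + ATA versus TC, 2 were higher with only the groups compared and 0 to 2 with a library left out. In TC + ATA versus EV, the 7 higher became 1 with the fold change limit and 5 to 8 with a library left out, and the 6 lower became 0 and 3 to 6. Over all genes, TC + ATA versus TC had 79 higher and 29 lower, and 795 and 633 with only the groups compared. Calls over all genes rose in each comparison when an EV library was left out and fell when a TC + ATA library was left out. With coding exons only, 15 of 30 places in the order of levels were kept.

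When the replicate number was a block, the members called higher relative to EV were 1 in TC and 2 in TC + ATA, and the wider genes called were 1 higher and 2 lower in TC and 5 higher and 2 lower in TC + ATA. The block ended the calls of Ptgis in TC (adjusted p = 0.156) and TC + ATA (0.0512) and of Ptges3 in TC + ATA (0.151). Same-numbered EV and TC + ATA libraries correlated at −0.03 and −0.09 across genes after subtraction of the group means. With 2 EV libraries the EV deviations mirror each other, so both values rest on 1 EV contrast. They cannot decide whether the numbers pair the samples.

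Depth limits Ptgds, Pla2g5 and Tbxa2r, whose EV values rest on 16 or fewer summed reads. The TC side of every comparison rests on 1 library, and a fit without an EV library leaves 1 there too, so the lone libraries are assumed to vary like the TC + ATA libraries.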
